A study of Rattus norvegicus with 21 samples.

Results

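A set of 10 genes that turn surplus carbon into fatty acids and triglyceride was followed through the rat liver, through bile duct tumours growing in it and through their metastases. They are Srebf1, Mlxipl, Acly, Acaca, Acacb, Fasn, Elovl6, Scd, Gpam and Pnpla3, which make up 10 of the 14217 genes represented on the arrays. They were chosen by name, with earlier results of these data known, and all 10 were measured. Each gene is represented by the probe set, among those annotated to its symbol alone, with the highest mean over the 21 arrays. The 10 genes have 17 such probe sets in all, and the remaining ones served as a check.

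The study used 9 male young adult Fischer 344 rats that received BDEneu cells, a rat bile duct cell line transformed with an activated neu oncogene. Groups of 3 different rats each, inoculated at the same time, were sampled at days 10, 15 and 25. From every rat came the tumour, labelled as intrahepatic cholangiocarcinoma (bile duct cancer within the liver), and a piece of right liver lobe labelled as normal. The 3 rats of day 25 also gave a peritoneal metastasis each, so that there were 7 groups of 3 arrays. Rats 1 to 3 belong to day 10, rats 4 to 6 to day 15 and rats 7 to 9 to day 25. All liver samples come from rats that carried a tumour, rats without a tumour were not analysed here, and every tumour and metastasis comes from the same cell line. The day 25 livers are described once as day 55, but both title and source give day 25, which was used.

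De novo lipogenesis starts from citrate. ATP citrate lyase (Acly) cleaves citrate to acetyl-CoA, acetyl-CoA carboxylases (Acaca and Acacb) carboxylate it to malonyl-CoA, and fatty acid synthase (Fasn) joins these units to palmitate, which Elovl6 lengthens and Scd desaturates before Gpam places the first acyl chain on glycerol phosphate. In the liver the transcription factors SREBP-1 (encoded by Srebf1), which responds to insulin, and ChREBP (encoded by Mlxipl), which responds to sugar, drive these enzymes after feeding.

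Levels are RMA values on the log2 scale, in which 1 unit is a doubling of signal. Array medians ran from 5.98 to 6.06. Without detection calls, a level under 5.98 was not told apart from background, and the highest value on any array was 14.62, so that changes reaching either end of the scale are compressed. The median SD of a gene within a group ran from 0.11 to 0.177. Erbb2, the rat neu gene, had means of 5.28 to 5.43 in the 3 liver groups and of 9.18 to 10.12 in tumours and metastases, which served as a check of the tissue labels. Hepatocyte transcripts were also present in the tumours: the mean level of 18 hepatocyte marker genes was 12.34 to 13.13 on the liver arrays, 7.80 to 12.06 on the tumour arrays and 5.71 to 6.50 on the metastasis arrays. Transcripts of the exocrine pancreas were most raised on 3 arrays, with means over 9 acinar genes of 9.09 in the day 15 tumour of rat 5, 8.87 in the day 25 tumour of rat 9 and 11.21 in the metastasis of rat 8. The day 10 tumour of rat 2 had 6.75, and every other array at most 5.70. That tumour was kept where the arrays with acinar transcripts were left out. In these bulk samples fewer cells of a type and less RNA per cell cannot be told apart.

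Promoters of 7 of the 10 genes are held in the RefSeq table used here (assembly GRCr8), as 9 windows of 250 bases before to 50 bases after an annotated start. Fasn, Acaca and Elovl6 have no window in it. The 9 windows are described because the 10 genes fell together in the liver. The NF-Y box (CCAAT or its complement ATTGG) and the Sp1 box (GGGCGG or CCGCCC), read by the general activators NF-Y and Sp1, were searched on both strands. The NF-Y box was in 8 of the 9 windows and in 37.5% of all 33469 promoter windows of the table, and the Sp1 box in 4 of the 9 and in 33.1% of all. The windows are not all separate promoters: those of Mlxipl start 4 bases apart and hold the same NF-Y boxes. Counted by gene, 6 of 7 had an NF-Y box and 3 of 7 an Sp1 box. The shares of all windows were not counted by gene, so these counts cannot be set against them. The E-box CACGTG, read by bHLH factors such as Mlxipl and Usf1, was in none of the 9 windows and in 6.42% of all, and the sterol element TCACNCCAC in none and in 1.12%. At such low shares, no match in 9 windows does not set these genes apart. The 4 windows that hold both kinds of box, from Srebf1, Acly and Pnpla3, are shown 5′ to 3′ on the gene's strand with the boxes in capitals. Those of Srebf1 are at chr10:45518961-45519260 and chr10:45529115-45529414 (minus strand), that of Acly at chr10:85963582-85963881 (minus strand) and that of Pnpla3 at chr7:117173278-117173577 (plus strand).
Srebf1, first window: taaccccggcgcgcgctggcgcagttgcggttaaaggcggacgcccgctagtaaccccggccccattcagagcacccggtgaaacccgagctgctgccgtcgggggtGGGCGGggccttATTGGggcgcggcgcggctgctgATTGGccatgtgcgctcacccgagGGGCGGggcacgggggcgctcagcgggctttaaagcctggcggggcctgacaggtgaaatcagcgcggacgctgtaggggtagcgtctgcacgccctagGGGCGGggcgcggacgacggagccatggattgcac
Srebf1, second window: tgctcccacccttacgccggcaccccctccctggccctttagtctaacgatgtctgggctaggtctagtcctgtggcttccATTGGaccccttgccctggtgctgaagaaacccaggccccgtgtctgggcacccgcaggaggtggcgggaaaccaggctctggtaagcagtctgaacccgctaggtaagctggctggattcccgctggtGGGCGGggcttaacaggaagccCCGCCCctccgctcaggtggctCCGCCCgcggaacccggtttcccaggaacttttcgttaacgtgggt
Acly: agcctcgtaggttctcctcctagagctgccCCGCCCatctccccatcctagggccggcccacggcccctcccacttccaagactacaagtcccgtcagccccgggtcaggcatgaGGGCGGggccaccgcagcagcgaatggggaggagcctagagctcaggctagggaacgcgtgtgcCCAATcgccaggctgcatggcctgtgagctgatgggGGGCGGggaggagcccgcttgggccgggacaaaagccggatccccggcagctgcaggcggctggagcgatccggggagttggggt
Pnpla3: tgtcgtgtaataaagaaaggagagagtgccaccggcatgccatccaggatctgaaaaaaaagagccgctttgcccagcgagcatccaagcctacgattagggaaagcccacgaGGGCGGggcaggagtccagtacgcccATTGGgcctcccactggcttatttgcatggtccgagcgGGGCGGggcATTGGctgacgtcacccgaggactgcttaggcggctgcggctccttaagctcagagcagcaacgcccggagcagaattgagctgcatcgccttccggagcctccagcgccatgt
In the first Srebf1 window counted from the start site, the NF-Y boxes begin at -131 and -108 and lie between Sp1 boxes that begin at -143 and -84. In the Pnpla3 window the NF-Y boxes begin at -111 and -64 and the Sp1 boxes at -137 and -73. The Acly window has 1 NF-Y box, beginning at -71, between Sp1 boxes at -135 and -35. A match of letters describes the window and is no measure of binding. The lack of a match does not exclude sites with other letters or outside the window.

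The first question was how lipogenesis in the liver lobe moved while the tumour grew. All 10 genes were lower in the liver at day 25 than at day 10, and for each of them every day 25 liver lay below every day 10 liver. All 10 passed the test (limma, adjusted p under 0.05 over all 14217 genes), against 3.77% of all genes called lower, and arrays without overlap in this direction were found for 15.3% of all genes. The median difference of the 10 genes was -2.20 on the log2 scale, against -0.01 over all genes. Because the genes were chosen with earlier results of these data known, these shares describe the set and do not test it independently.

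**Figure D1:**
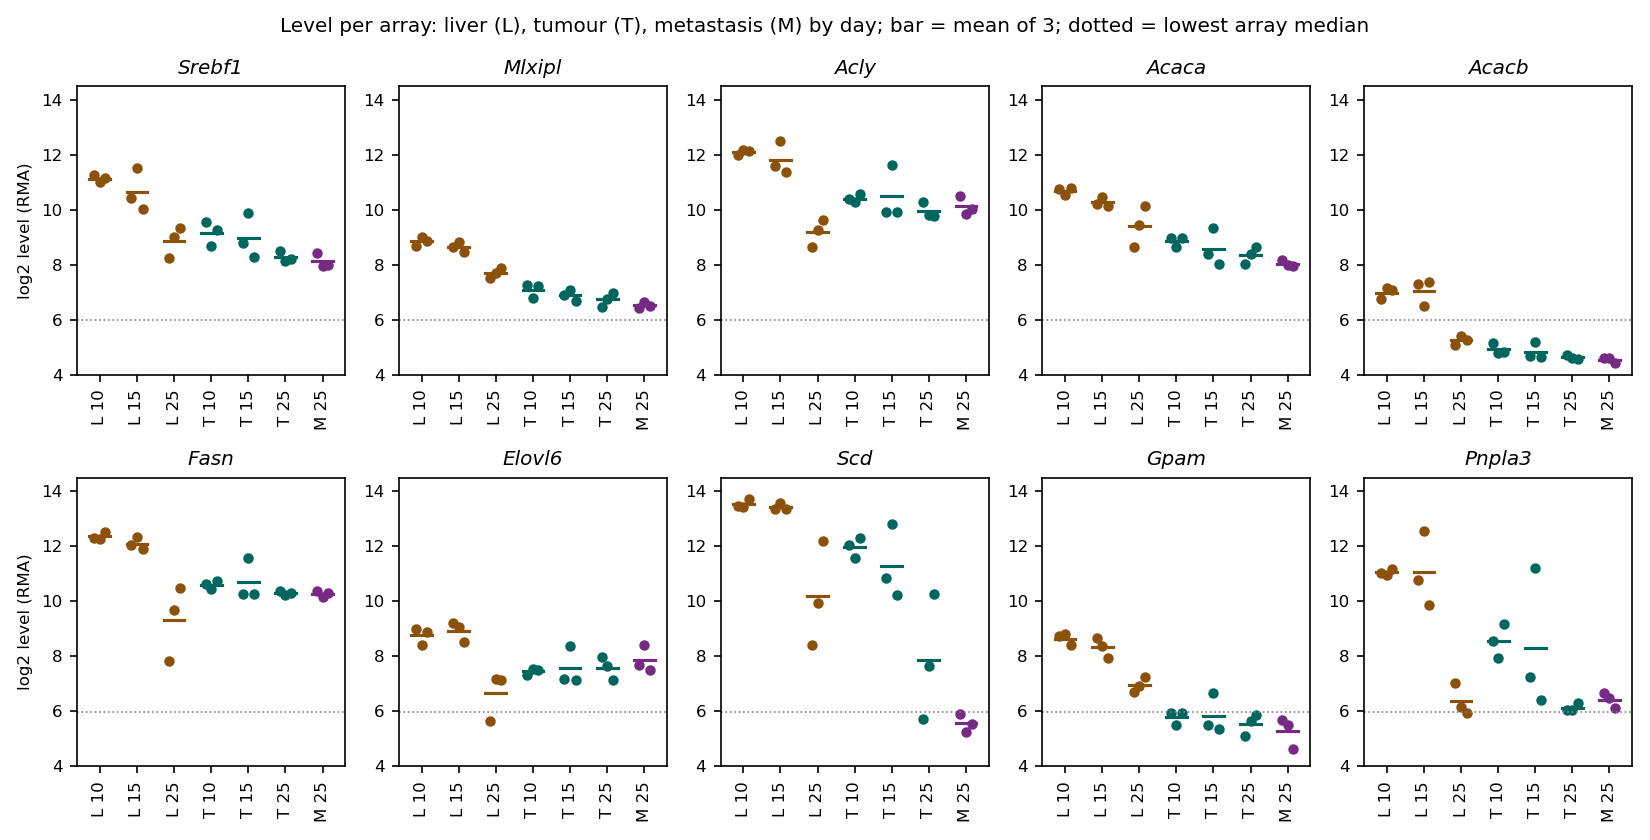
Log2 level (vertical axis, RMA) of each gene on each of the 21 arrays, as points, by tissue and day (L liver, T tumour, M metastasis); bars are means of 3 arrays and the dotted line is the lowest array median, 5.98. In the liver panels the day 25 points lie below all day 10 points for each gene, while the tumour points of Acly, Fasn and Elovl6 lie near one level over the 3 days except in the day 15 tumour of rat 5.

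Of the 2 regulators, Srebf1 stood at 11.26, 10.99 and 11.15 in the day 10 livers, at 10.42, 11.52 and 10.02 in the day 15 livers and at 8.23, 9.02 and 9.33 in the day 25 livers. Every day 25 value is below every earlier one, and at day 15 the liver of rat 5 was the highest of all 9. Srebf1 fell by 2.27 (SE 0.40, adjusted p = 0.0031) from day 10 to day 25, a 4.83-fold lower signal. Mlxipl levels were 8.68, 9.01 and 8.87 at day 10, 8.64, 8.81 and 8.46 at day 15, and 7.53, 7.69 and 7.87 at day 25. Days 10 and 15 overlap and day 25 lies clear of both. Mlxipl fell by 1.15 (SE 0.16, adjusted p = 0.00062), the smallest change of the 10 genes, with little spread between rats.

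The enzymes of palmitate synthesis fell too. Acly, which supplies cytosolic acetyl-CoA, stood at 12.00, 12.18 and 12.14 at day 10, at 11.59, 12.52 and 11.36 at day 15, and at 8.66, 9.28 and 9.63 at day 25. It fell by 2.92 (SE 0.39, adjusted p = 0.00049), a 7.55-fold lower signal. No day 25 liver came within 1 log2 unit of any earlier liver. Fasn stood at 12.31, 12.27 and 12.51 at day 10, at 12.03, 12.33 and 11.90 at day 15, and at 7.82, 9.70 and 10.49 at day 25. The day 25 livers were all lower and far apart from one another, rat 7 being lowest. Fasn fell by 3.03 (SE 0.46, adjusted p = 0.0013), 8.16-fold. This SE rests on 1 spread of Fasn over all 7 groups. By group the SD was 1.37 in the day 25 livers, 0.13 in the day 10 livers and 0.07 in the day 25 tumours. Over 32 alternative settings the limma adjusted p of this fall was at most 0.049. With the day 25 liver of rat 7 left out the difference was -2.27 (adjusted p = 0.001).

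Both acetyl-CoA carboxylases fell. Acaca, the cytosolic form that feeds synthesis, stood at 10.74, 10.54 and 10.78 at day 10, at 10.21, 10.47 and 10.15 at day 15, and at 8.66, 9.44 and 10.13 at day 25. The highest day 25 liver, that of rat 9, was just under the lowest day 15 liver. Acaca fell by 1.28 (SE 0.32, adjusted p = 0.02). Acacb, the mitochondrial form whose malonyl-CoA restrains fatty acid oxidation, stood at 6.75, 7.15 and 7.07 at day 10, at 7.29, 6.50 and 7.38 at day 15, and at 5.10, 5.40 and 5.28 at day 25. At day 15 the liver of rat 5 was the lowest, where it was the highest for Srebf1, Acly and Pnpla3. The day 25 values are under the lowest array median, so the size of its fall, 1.73 (SE 0.20, adjusted p = 0.00015), is compressed.

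For chain lengthening and desaturation, Elovl6 stood at 9.00, 8.43 and 8.89 at day 10, at 9.20, 9.08 and 8.50 at day 15, and at 5.64, 7.17 and 7.14 at day 25. Rat 7 was again the lowest, and the fall was 2.12 (SE 0.40, adjusted p = 0.0048). Its value, 5.64, is under the lowest array median, so the size of the fall may be compressed. Scd, the hepatic stearoyl-CoA desaturase, stood at 13.47, 13.43 and 13.70 at day 10 and at 13.34, 13.56 and 13.34 at day 15, near the top of the scale, and at 8.43, 9.95 and 12.21 at day 25. The 3 day 25 livers span almost 4 log2 units, with rat 7 lowest and rat 9 highest. Scd fell by 3.34 (SE 0.94, adjusted p = 0.036), with a difference of -2.45 and no call without the day 25 liver of rat 7 (adjusted p = 0.16) and of -4.34 without that of rat 9 (adjusted p = 0.0077).

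For triglyceride, Gpam, the mitochondrial acyltransferase of the first step, stood at 8.72, 8.80 and 8.42 at day 10, at 8.66, 8.36 and 7.96 at day 15, and at 6.71, 6.94 and 7.25 at day 25. It fell by 1.68 (SE 0.33, adjusted p = 0.0056), with no overlap between day 25 and either earlier day. Pnpla3, a lipid droplet protein that is a known target of SREBP-1, stood at 11.02, 10.97 and 11.18 at day 10, at 10.78, 12.54 and 9.85 at day 15, and at 7.04, 6.17 and 5.93 at day 25. It fell by 4.68 (SE 0.87, adjusted p = 0.0046), the largest change of the 10 genes, and ended near the array median. The value of rat 9, 5.93, is under the lowest array median, so the size of the fall may be compressed. Here rat 7 was the highest of the day 25 livers, the reverse of its place for Fasn, Elovl6 and Scd.

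The Scd call for day 25 against day 10 was lost without any 1 of the 3 day 10 livers or without the day 25 liver of rat 7 or of rat 8 (adjusted p from 0.083 to 0.16), and the Acaca call without the day 10 liver of rat 1 or rat 3 or the day 25 liver of rat 7 (0.056 to 0.094). The calls of the other 8 genes held with each array left out in turn. Fitted on the 6 arrays of the compared days alone, Acaca (adjusted p = 0.094) and Scd (0.084) were not called, which left 8 of the 10.

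The intervals between sampling days were tested one by one, and the change in one was not tested against that in the other. From day 10 to day 15 none of the 10 genes was called (limma, adjusted p under 0.05), where 4 of 14217 genes were (0.0281%) and 1438 genes had an unadjusted p under 0.05; the members' differences ran from -0.48 to 0.16, with a median of -0.25. Acaca had -0.41 (adjusted p = 0.74), with every day 15 liver below every day 10 liver, as for 7.17% of all genes. From day 15 to day 25, 8 of the 10 were called lower, against 1.38% of all genes. The differences were -4.68 for Pnpla3 (SE 0.87), -2.75 for Fasn (SE 0.46), -2.64 for Acly (SE 0.39), -2.28 for Elovl6 (SE 0.40), -1.79 for Srebf1 (SE 0.40), -1.79 for Acacb (SE 0.20), -1.36 for Gpam (SE 0.33) and -0.94 for Mlxipl (SE 0.16). The 2 uncalled genes were Acaca (-0.87, SE 0.32, adjusted p = 0.19) and Scd (-3.22, SE 0.94, adjusted p = 0.093). The 3 liver comparisons share arrays with one another. Fitted on the 6 arrays of days 15 and 25 alone, none of the 10 passed, and of all genes 2 rather than 313 did. Leaving out 1 array gave 5 to 10 called genes: 5 without the day 15 liver of rat 5, which ended the calls of Srebf1 (adjusted p = 0.12), Gpam (0.11) and Pnpla3 (-3.94, adjusted p = 0.053), and 10 without the day 25 liver of rat 9, when Acaca (-1.23, adjusted p = 0.035) and Scd (-4.23, adjusted p = 0.021) were called too. The Gpam call was lost without any 1 of 11 arrays (adjusted p from 0.051 to 0.15), and the Srebf1 call also without the day 15 liver of rat 4 (0.058) or the day 25 liver of rat 7 (0.12). Scd was called as well without the day 25 tumour of rat 7 (0.048) or rat 9 (0.042).

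**Figure D2:**
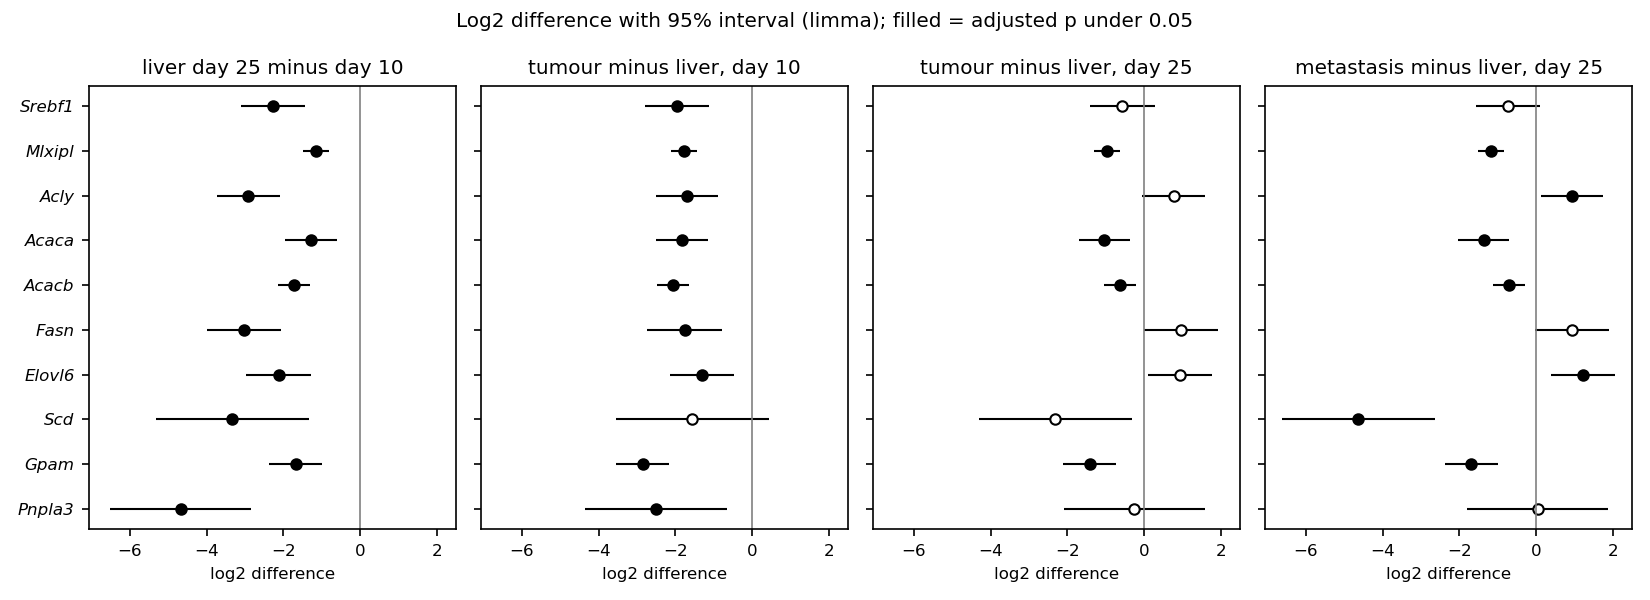
Log2 differences (horizontal axes) with 95% intervals from limma for the 10 genes in 4 comparisons of 3 against 3 arrays; filled points have an adjusted p under 0.05. All 10 points are filled and left of 0 for the liver at day 25 against day 10, and Acly, Fasn and Elovl6 lie to the right of 0 for tumour and for metastasis against liver at day 25.

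Over the 9 liver arrays the correlation between 2 of the 10 genes ran from 0.722 to 0.986 over 45 pairs, with a median of 0.911; these points share the change with day. With each day's mean taken out, the correlations ran from -0.869 to 0.972, with a median of 0.529. Of the 45 pairs 11 were then negative, each with Acacb or Pnpla3 in it, and the lowest was that of Acacb with Pnpla3. At day 15 the liver of rat 5 had the highest level of the 3 for 7 of the 10 genes, and for 38.2% of all genes. Its tumour had the highest level for 10 of 10, against 34.5% of all genes, and both tissues at once for 7, against 16.4%. At day 25 the liver of rat 9 was the highest for 7 of the 10 (31.1% of all genes).

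The 3 other represented genes with the highest correlation to each member over the 9 livers were as follows. For Scd they were Fads2 (r = 0.992), Thrsp (0.991) and Fads1 (0.990), which encode the delta-6 desaturase, the thyroid hormone-responsive Spot 14 protein and the delta-5 desaturase. For Mlxipl they were Tkt (0.989), the transketolase of the pentose phosphate pathway, Gpx1 (0.988), a glutathione peroxidase, and Me1 (0.988), the malic enzyme that supplies NADPH. For Fasn they were Cyp4f1 (0.992), a cytochrome P450 of the fatty acid omega-hydroxylase family, Ttc39c (0.991) and Fads1 (0.991), and for Acaca Tkfc (0.990), Iyd (0.988) and Agxt2 (0.988). For Srebf1 they were Cyp2f4, Coq8a and Bbox1 (0.985 to 0.988), for Acly Oaz1, Upb1 and Poteml2 (0.985 to 0.988), for Acacb Ldhd, Slc1a6 and Elp3 (0.972 to 0.975), for Elovl6 Cgn, Ttc39c and Hp1bp3 (0.983 to 0.986), for Gpam Depdc7, Tkt and Ndst1 (0.963 to 0.983) and for Pnpla3 Cd164, Qdpr and Khnyn (0.981 to 0.986). All these values are descriptions over 9 arrays that share the day of sampling.

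**Figure D3:**
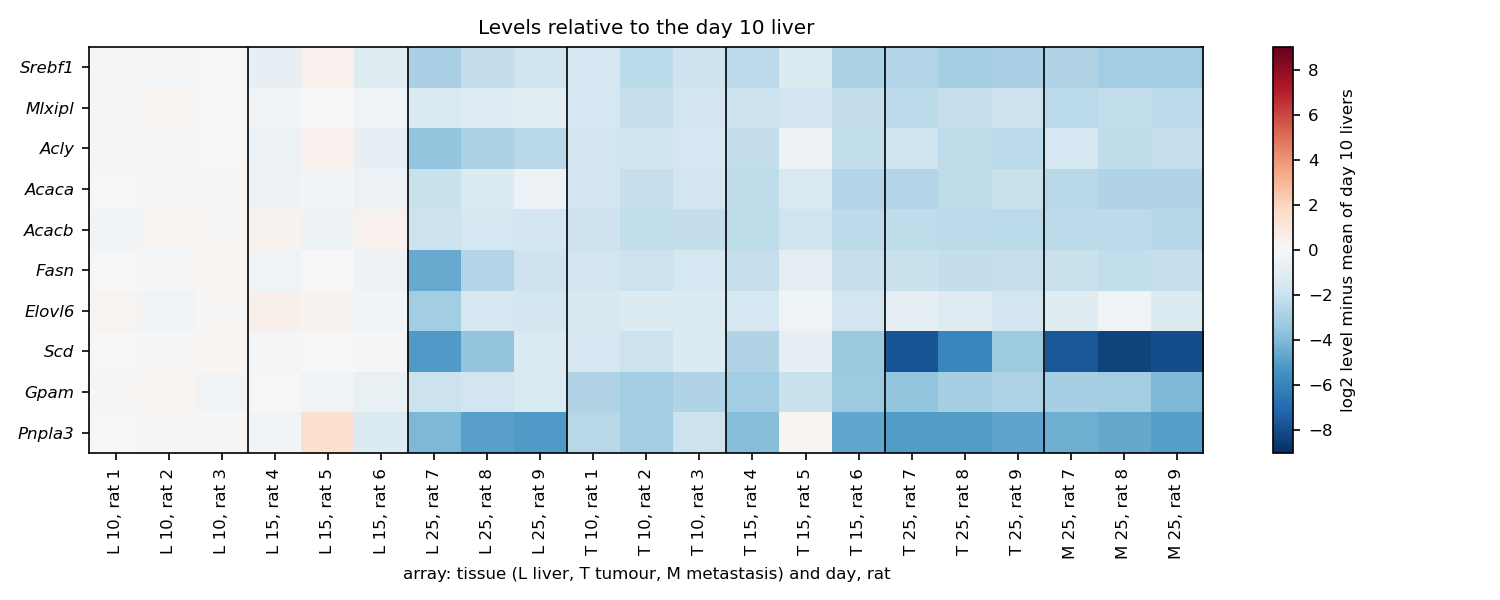
Level of each gene on each array minus the mean of that gene in the 3 day 10 livers (log2, colour scale), with arrays grouped by tissue and day and labelled by rat. Blue spreads over all genes in the day 25 livers, the day 15 tumour of rat 5 is the palest tumour column, and Scd is darkest in the metastases.

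Genes around the pathway were counted against the 3.77% of all genes called lower and the 5.33% called higher in the liver from day 10 to day 25. In the list of carbon and NADPH supply 4 of 11 measured genes fell from day 10 to day 25 and none rose, with a median of -0.98. Me1 fell by 2.89 (SE 0.48), Acss2, which activates acetate, fell by 1.82 (SE 0.40) and Tkt fell by 1.39 (SE 0.14), while Idh1, a cytosolic source of NADPH, had -0.57 (adjusted p = 0.32). In the list of other elongases, desaturases and acyl-CoA synthetases 5 of 13 fell and none rose, with a median of -0.70. Fads2 fell by 3.33 (SE 0.73), Fads1 fell by 3.19 (SE 0.59) and Elovl5, an elongase of polyunsaturated chains, fell by 1.93 (SE 0.42); Acsl4 had -0.12 (adjusted p = 0.81).

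The other regulators, enzymes of triglyceride assembly and droplet genes were mostly uncalled. Of 18 other regulators of lipogenic transcription 2 fell and 1 rose (median -0.14). Mid1ip1, whose product activates acetyl-CoA carboxylase, fell by 1.40 (SE 0.38) and Rxra, the retinoid X receptor partner of LXR, fell by 0.75 (SE 0.19), whereas Prkaa1, a catalytic subunit of the kinase AMPK, rose by 1.10 (SE 0.28). Insig1, the feedback inhibitor of SREBP processing, had -0.83 (adjusted p = 0.31), and Thrsp had -2.81 (SE 1.05, adjusted p = 0.11). Of 11 other genes of triglyceride assembly only Gpat4, an acyltransferase of the endoplasmic reticulum, was called (-0.70, SE 0.18), and Dgat2, which completes triglyceride, had -0.51 (adjusted p = 0.19). Of 18 genes of droplets, lipolysis and export, Mgll (-0.82, SE 0.18) and Abhd5 (-0.63, SE 0.15), both of lipolysis, fell and Lpl, lipoprotein lipase, rose by 1.90 (SE 0.49); Apob, the core protein of VLDL, had 0.10 (adjusted p = 0.97).

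A list of genes that the liver raises in fasting gave no call among its 8 measured genes, with a median of 0.41; Pck1, of gluconeogenesis, had -0.01 (SE 0.58, adjusted p = 0.99). Feeding state and time of day at sampling are not given in the labels, and their part in the result was not tested.

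Markers of cell types in the day 25 liver were as follows. Of 18 hepatocyte markers 1 fell and none rose, where 3.77% of all genes were called lower. The median difference of the 18 was -0.10 between days 25 and 10. Their mean level was 12.96 to 13.13 on the day 10 arrays and 12.34 to 12.67 on the day 25 arrays, without overlap, and 8 of the 18 were lower at day 25 without overlap (15.3% of all genes). The lowest of the 18 differences was -5.54, and this 1 marker weighs heavily in the mean level. The lower mean hepatocyte level moves with the fall of the 10 genes, and its part in it was not tested. Of 8 fibroblast markers 2 rose (median 1.17), of 7 macrophage markers 3 (median 0.68), of 7 biliary markers 1 (median 0.52) and of 7 adipocyte markers 2 (median -0.07), where 5.33% of all genes were called higher; the adipocyte genes Adipoq, Plin1, Lep and Slc2a4 were under the lowest array median in every group. The part of these other cells in the fall of the 10 genes was not tested. The highest value on any array was 14.62, against 12.34 to 13.13 for the mean of the hepatocyte markers in liver. Differences of markers near that value may be compressed.

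**Figure D4:**
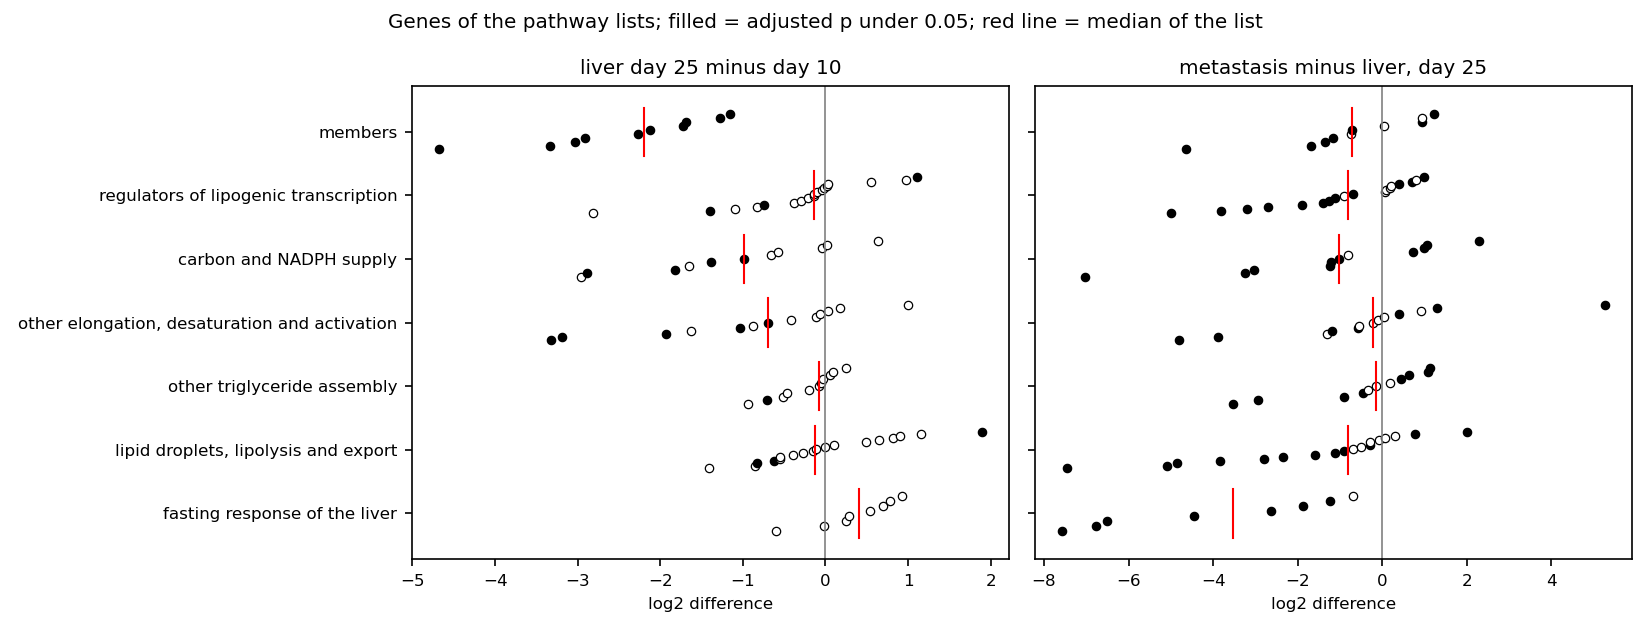
Log2 difference (horizontal axes) of every measured gene of each list, one point a gene, for the liver at day 25 against day 10 and for metastasis against liver at day 25; filled points have an adjusted p under 0.05 and red lines are list medians. Of the 7 lists drawn, in the liver the members have the lowest median, -2.20, and the fasting list the highest, 0.41.

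The comparison with the tumours asked how these genes differ between the cancer and the liver beside it. Over all days the 10 genes were lower in tumour (9 arrays) than in liver (9 arrays), and all 10 passed, where 37.8% of all genes were called lower. The mean of all 18 hepatocyte markers, 7.80 to 12.06 in tumour and 12.34 to 13.13 in liver, moves with this difference, and its part in the result was not tested. Gpam fell by 2.25 (SE 0.19) and Mlxipl fell by 1.49 (SE 0.09), both without overlap between the tissues, as 12.4% of all genes in this direction. For Mlxipl, tumour arrays had 6.46, 6.91 and 7.27 as lowest, mean and highest level and liver arrays 7.53, 8.39 and 9.01. Gpam and Acacb means in tumour were under the lowest array median at each day, so their sizes are compressed. The other 8 genes overlapped between the tissues: the differences were -2.00 for Scd (SE 0.54), -1.84 for Pnpla3 (SE 0.50), -1.63 for Acacb (SE 0.11), -1.52 for Acaca (SE 0.18), -1.40 for Srebf1 (SE 0.23), -0.75 for Acly (SE 0.22), -0.73 for Fasn (SE 0.26) and -0.57 for Elovl6 (SE 0.23, adjusted p = 0.033). Without the 3 arrays with the highest acinar means Scd fell by 2.65 (adjusted p = 7.8e-05). The Elovl6 call was lost without any 1 of 10 arrays (adjusted p from 0.055 to 0.073), and its other probe set did not pass (-0.22, adjusted p = 0.27).

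By day, more of the genes were called at days 10 and 15 than at day 25. At day 10, 9 of the 10 were lower in tumour, against 28.1% of all genes; the differences were -1.96 for Srebf1 (SE 0.40), -1.69 for Acly (SE 0.39), -1.76 for Fasn (SE 0.46) and -2.86 for Gpam (SE 0.33), and Scd was not called (-1.56, SE 0.94, adjusted p = 0.17). Fitted on the arrays of the compared groups alone, Scd was called too (adjusted p = 1e-04). All tumours lay below all livers for each of the 10 at that day, as they did for 36.5% of all genes. Pnpla3 fell by 2.51 at day 10 and lost its call without the tumour of rat 2 (adjusted p = 0.077) or the liver of rat 3 (0.053), and one of its other probe sets did not pass (-2.33, adjusted p = 0.055).

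At day 15 again 9 of the 10 were lower in tumour, against 23.6% of all genes, with Scd uncalled (-2.13, SE 0.94, adjusted p = 0.069). It was called in the fit blocked by rat (0.043), in a fit on the compared groups alone (0.029) and without any 1 of 5 arrays (0.025 to 0.047). In the tumour of rat 5 these genes stood apart from those of rats 4 and 6. Pnpla3 had 7.23, 11.23 and 6.41 in the tumours of rats 4, 5 and 6, Fasn 10.27, 11.58 and 10.28, and Scd 10.84, 12.79 and 10.23. The middle value, from rat 5, is the high one in each case, and the hepatocyte marker mean of the same 3 tumours was 10.48, 12.06 and 9.81. Pnpla3 fell by 2.77 (SE 0.87) in tumour against liver at day 15. The difference was -4.24 without the tumour of rat 5, -1.83 (adjusted p = 0.095) without that of rat 6, -2.24 (0.071) without that of rat 4 and -2.03 (0.083) without the liver of rat 5. The Fasn and Acly calls were lost without the tumour of rat 4 or rat 6 or the liver of rat 5 (adjusted p from 0.053 to 0.081). In the fit on the compared groups alone Acly (0.078) and Pnpla3 (0.13) were not called.

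At day 25, 4 of the 10 were lower in tumour, against 22.4% of all genes: Gpam (-1.42, SE 0.33), Acaca (-1.04, SE 0.32), Mlxipl (-0.96, SE 0.16) and Acacb (-0.62, SE 0.20, both groups under the lowest array median). The Acaca call was absent on its other probe set (-0.53, adjusted p = 0.12) and in a fit on the compared groups alone (0.085). Acly was 0.77 (SE 0.39) higher in tumour, every tumour lying above every liver (as for 29.1% of all genes), but did not pass (adjusted p = 0.11). Fasn (0.96, SE 0.46, adjusted p = 0.093) and Elovl6 (0.94, SE 0.40, adjusted p = 0.06) had the same direction without a call, Elovl6 passing with the rat as a block (adjusted p = 0.044) and on its other probe set (1.06, adjusted p = 0.0091), whose liver mean, 5.44, is under the lowest array median. Scd had -2.31 (SE 0.94, adjusted p = 0.051) and passed under 9 of 32 alternatives. Among these were the rat as a block (0.03), centring of each array, renewed quantile normalization and the filter on low levels. Srebf1 (-0.57, adjusted p = 0.25) and Pnpla3 (-0.25, adjusted p = 0.83) overlapped between the tissues. Leaving out 1 array gave 3 to 7 called genes. With the day 15 tumour of rat 5 left out there were 7, with Acly (adjusted p = 0.029) and Elovl6 (0.038) called higher and Scd (0.042) lower. Fasn was called without the day 25 liver of rat 9 (1.54, adjusted p = 0.0074), Acaca was lost without the tumour of rat 7 (0.055) or the liver of rat 9 (-0.68, 0.082), and Acacb without the liver of rat 8 (0.058). Elovl6 was also called without the tumour of rat 9 or the liver of rat 8 or 9 (0.035 to 0.04), and Scd without the tumour of rat 9 (0.003) or the liver of rat 7 (0.012).

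The change of the tumour-liver difference between days 10 and 25 was itself tested. Acly (2.47, SE 0.55, adjusted p = 0.039), Fasn (2.72, SE 0.65, adjusted p = 0.047) and Acacb (1.44, SE 0.28, adjusted p = 0.025) passed, all upward, against 0.373% of all genes called in that direction. For Acacb the tumours of both days and the livers of day 25 were under the lowest array median, so that its value compares levels not told apart from background. In a fit on the compared groups alone Fasn was not called (0.083), and Gpam (1.44, adjusted p = 0.047) and Pnpla3 (2.26, 0.037) were. With the rat as a block 5 passed, Mlxipl (0.80, adjusted p = 0.048) and Elovl6 (2.24, adjusted p = 0.034) being added. For Acly the difference went from -1.69 at day 10 to 0.77 at day 25. Within rats, Acly in tumour minus liver was -1.61, -1.89 and -1.58 in rats 1 to 3 and 1.64, 0.53 and 0.15 in rats 7 to 9, and Fasn was -1.69, -1.84 and -1.76 in rats 1 to 3 and 2.54, 0.52 and -0.19 in rats 7 to 9. The sign of Acly is the same in all 3 rats of each day, and among rats 7 to 9 rat 7 has the largest difference for both genes. For Fasn the tumours of rats 7 to 9 stood at 10.37, 10.22 and 10.30 and the livers at 7.82, 9.70 and 10.49. For Acly the tumours stood at 10.30, 9.81 and 9.78 and the livers at 8.66, 9.28 and 9.63. Among these livers that of rat 7 had the highest biliary marker mean (7.39, against 6.11 and 5.71). Its fibroblast marker mean, 9.03, was between the others (9.15 and 8.00). The tumour of rat 7 had the lowest hepatocyte marker mean of the 9 tumours, 7.80. The part of these marker levels in the result was not tested. Without the day 25 liver of rat 7 Fasn had 1.96 (adjusted p = 0.04). Leaving out 1 array gave 0 to 4 called genes, and 0 of 10 passed with rat 7 left out entirely. The Acacb call was lost without the tumour of rat 2, 3, 7 or 8 or the liver of rat 2 or 3 (adjusted p from 0.052 to 0.077), the Acly call without any 1 of 12 arrays (up to 0.11) and the Fasn call without any 1 of 16 (up to 0.13).

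**Figure D5:**
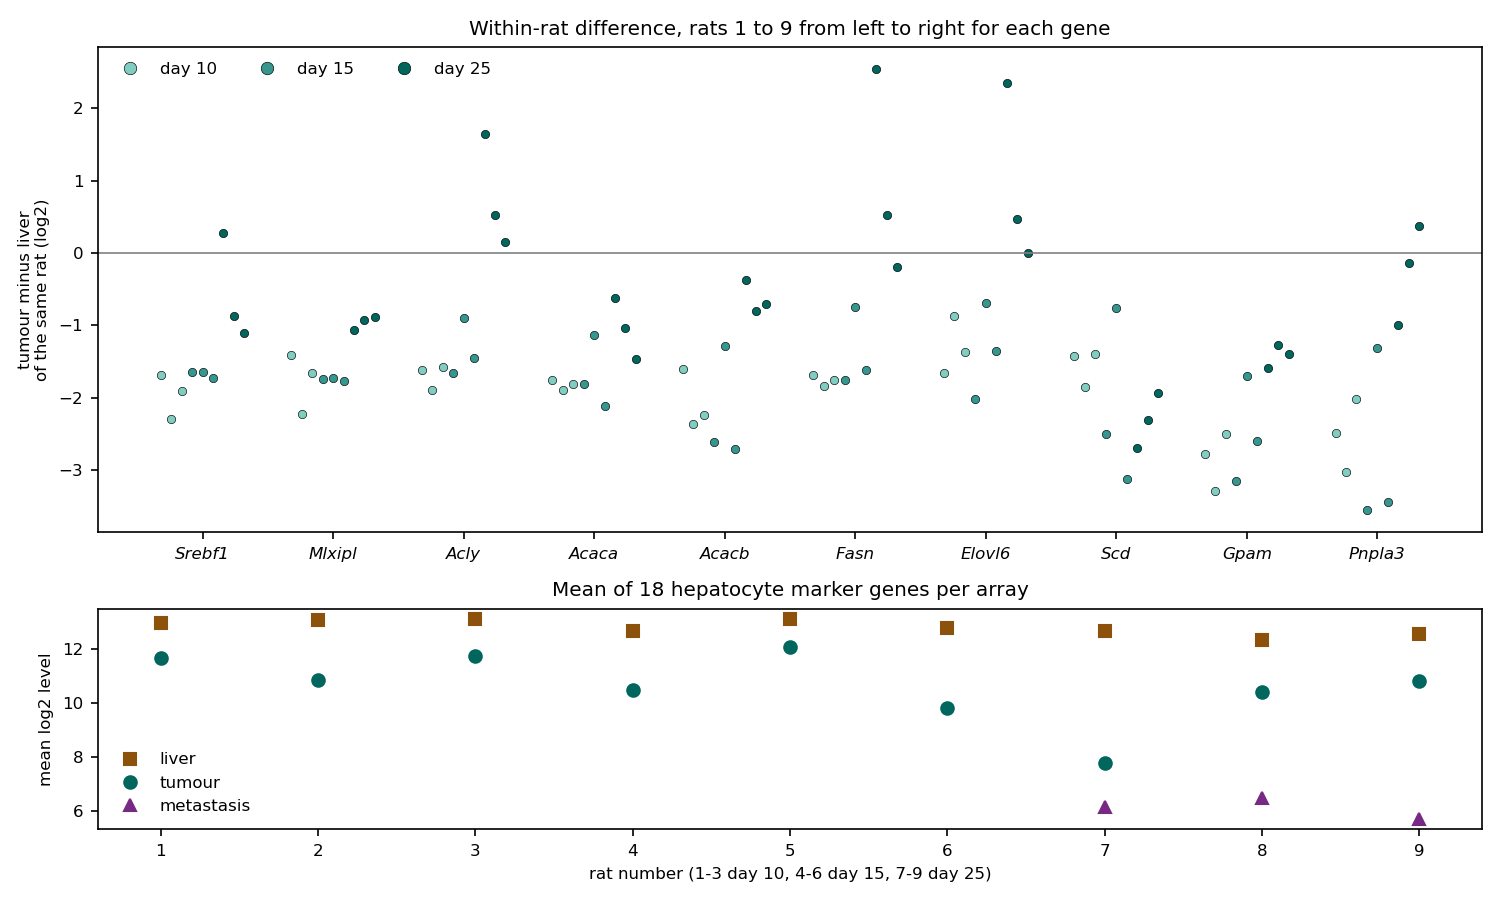
Top, tumour minus liver of the same rat (log2, vertical axis) for each gene, with rats 1 to 9 from left to right and darker points for later days; bottom, mean log2 level of 18 hepatocyte markers on each array by rat. At day 25 the points of Acly lie above 0 in all 3 rats and those of Gpam and Mlxipl below 0, and the tumour of rat 7 has the lowest hepatocyte mean of the 9 tumours, 7.80.

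Among the tumours themselves no member passed between days: 0 of 10 from day 10 to 15, when 0% of all genes passed (350 had an unadjusted p under 0.05), 0 from day 15 to 25 (0% of all genes, 1202 unadjusted) and 0 from day 10 to 25, when 0.0563% passed (2443 unadjusted; all by limma). Scd levels were 12.04, 11.57 and 12.31 in tumours of day 10, 10.84, 12.79 and 10.23 in those of day 15, and 5.73, 7.65 and 10.26 in those of day 25. All day 25 values lie below all day 10 values, as for 15% of all genes, and rat 7 is under the lowest array median. The difference from day 10 to day 25 was -4.09 (SE 0.94, adjusted p = 0.14), and -5.28 (adjusted p = 0.02) without the day 25 tumour of rat 9, an array with acinar transcripts. Pnpla3 had 8.54, 7.95 and 9.16 at day 10 and 6.05, 6.03 and 6.31 at day 25 (-2.42, SE 0.87, adjusted p = 0.20), and was called without both arrays of rat 5 (adjusted p = 0.023). Srebf1 had 9.57, 8.70 and 9.25 at day 10 and 8.51, 8.15 and 8.23 at day 25 (-0.88, SE 0.40, adjusted p = 0.27). The hepatocyte marker means of the same arrays were 11.68, 10.87 and 11.74 for day 10 and 7.80, 10.43 and 10.80 for day 25; their part in these differences was not tested.

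The metastases had low levels of hepatocyte transcripts, with 10 of the 18 hepatocyte markers under the lowest array median. None of the 10 genes passed between metastasis and day 25 tumour, where 0.338% of all genes passed. Scd had 5.92, 5.23 and 5.54 in the metastases, all under the lowest array median, a difference of -2.32 from tumour (SE 0.94, adjusted p = 0.72, with an unadjusted p of 0.025). Srebf1 (-0.17, SE 0.40) and Pnpla3 (0.29, SE 0.87) overlapped between the groups. Srebf1 was 7.97 to 8.43 in the metastases and 8.15 to 8.51 in the tumours, and Pnpla3 was 6.14 to 6.65 and 6.03 to 6.31.

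Against the liver of the same rats at day 25, 5 of the 10 genes were lower in metastasis and 2 higher, where 23.6% and 33.3% of all genes were called in these directions. Scd fell by 4.63 (SE 0.94, adjusted p = 0.00053), Gpam fell by 1.69 (SE 0.33, adjusted p = 0.00033), Acaca fell by 1.36 (SE 0.32, adjusted p = 0.0015), Mlxipl fell by 1.17 (SE 0.16, adjusted p = 1.2e-05) and Acacb fell by 0.71 (SE 0.20, adjusted p = 0.006). Scd, Gpam and Acacb lay under the lowest array median in the metastases, so these sizes are compressed. Acacb was under it in the livers too, at 5.26, so that its difference is between levels not told apart from background. The Scd difference was -5.52 without the day 25 liver of rat 7 and -3.63 without that of rat 9.

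The higher genes were the elongase Elovl6 and the lyase Acly, both without overlap of arrays, as were 32.9% of all genes in this direction. Elovl6 stood at 7.69, 8.41 and 7.51 in the metastases against 5.64, 7.17 and 7.14 in the livers, with no overlap, and rose by 1.22 (SE 0.40, adjusted p = 0.015). The liver value of 5.64, from rat 7, is under the lowest array median, so this size may be compressed. The other Elovl6 probe set also passed (1.47, adjusted p = 0.00066), with a liver mean of 5.44, under the lowest array median. Acly stood at 10.51, 9.84 and 10.03 against 8.66, 9.28 and 9.63, again with no overlap, and rose by 0.94 (SE 0.39, adjusted p = 0.049), a call lost under 16 of 32 alternatives, among them without the metastasis of rat 7 (0.74, adjusted p = 0.16) or the liver of rat 7 (0.67, 0.19). Fasn stood at 10.39, 10.15 and 10.29 against 7.82, 9.70 and 10.49, where the liver of rat 9 is above all 3 metastases and the other livers are below them (0.94, SE 0.46, adjusted p = 0.091), and it was called without that liver (1.51, adjusted p = 0.0067). Srebf1 (-0.74, SE 0.40, adjusted p = 0.12) and Pnpla3 (0.04, SE 0.87, adjusted p = 0.97) were not called. Elovl6 lost its call without the metastasis of rat 8 (0.95, adjusted p = 0.076), an array with acinar transcripts, or the liver of rat 7 (0.72, 0.098) and in a fit on the compared groups alone (0.084), and Srebf1 gained one without the liver of rat 7 (-1.05, 0.043).

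The livers in this comparison are those in which the 10 genes had fallen. Set beside the day 10 livers, the metastases had mean levels of 10.27 for Fasn, 10.12 for Acly and 7.87 for Elovl6, where the day 10 livers had 12.36, 12.10 and 8.77; metastases and day 10 livers come from different rats and days, and this difference was not tested.

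Genes around the pathway separated tumour from liver in both directions over all days, where 37.8% of all genes were called lower and 36.8% higher. Of 13 other elongases, desaturases and acyl-CoA synthetases 8 were lower in tumour and 3 higher (median -0.75). Scd2, a second stearoyl-CoA desaturase gene, rose by 5.04 (SE 0.24, adjusted p = 2.2e-11), with liver means of 5.90, 7.18 and 6.89 and tumour means of 11.41, 11.67 and 12.01 at days 10, 15 and 25; it was 12.15 ± 0.61 (SD, n = 3) in the metastases, where Scd was at 5.56 ± 0.34. Scd had liver means of 13.53, 13.42 and 10.20 at the same days, so that in the livers of the rats with metastases it lay between its extremes. Elovl2, an elongase of long polyunsaturated chains, fell by 3.54 (SE 0.37) and Acsl1, an acyl-CoA synthetase, fell by 2.31 (SE 0.42), and Fads1 was not called (-0.68, SE 0.34, adjusted p = 0.08).

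Of 11 genes of carbon and NADPH supply 7 were lower and 4 higher in tumour. Slc2a2, the glucose transporter of hepatocytes, fell by 3.48 (SE 0.53), Pklr, the liver pyruvate kinase, fell by 2.80 (SE 0.55) and Khk, fructokinase, fell by 2.67 (SE 0.31). Of 18 other regulators 12 were lower and 4 higher, and Prkaa2, a second AMPK catalytic subunit, fell by 2.70 (SE 0.24), Thrsp fell by 2.49 (SE 0.61) and Nr1h3, which encodes LXR alpha, fell by 2.38 (SE 0.25), while Mid1ip1 was not called (-0.23, adjusted p = 0.35). Of 11 other genes of triglyceride assembly 6 were lower and 3 higher: Gpd1, which makes glycerol phosphate, fell by 2.47 (SE 0.38), Lpin1, a phosphatidate phosphatase, fell by 2.22 (SE 0.37) and Dgat2 fell by 1.06 (SE 0.14), and Gpat4 was not called (0.12, adjusted p = 0.29).

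Of 18 genes of droplets, lipolysis and export 11 were lower and 3 higher. Mttp, which loads triglyceride onto Apob, fell by 3.42 (SE 0.69) and Cideb, a droplet protein of hepatocytes, fell by 2.55 (SE 0.27), whereas Hilpda, a hypoxia-inducible droplet protein that inhibits lipolysis, rose by 2.41 (SE 0.30); Plin2, a droplet coat protein, was not called (-0.18, adjusted p = 0.38). Of 8 genes of the fasting response 7 were lower and none higher, among them Cyp4a1 (-3.99, SE 0.47), Pdk4 (-2.50, SE 0.39) and Pck1 (-2.48, SE 0.34). For metastasis against the day 25 liver 33.3% of all genes were called higher and 23.6% lower. In this comparison the metastases had counts of 3 higher and 9 lower of 18 regulators, 4 and 6 of 11 genes of carbon supply, 3 and 4 of 13 of elongation and desaturation, 4 and 4 of 11 of triglyceride assembly, 2 and 10 of 18 of droplets and 0 and 7 of 8 of fasting. Tkt, of the list of carbon supply, rose by 1.20 (SE 0.08) in tumour over all days and was 2.28 higher (SE 0.14) in metastasis against the day 25 liver.

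The other probe sets of these genes gave the same direction in the liver. For day 25 against day 10 all 7 of them were lower and passed, at -2.16 for Srebf1, -1.67 for Acaca, -3.81 for Fasn, -1.58 for Elovl6, -1.26 for Gpam, and -5.63 and -2.65 for Pnpla3. The day 25 means of that of Elovl6 (5.44) and both of Pnpla3 (4.31 and 5.92) were under the lowest array median, so that their sizes are compressed. All 7 are read from the same arrays as the others and are no independent replicates. For the change of the tumour-liver difference the second Fasn probe set did not pass (3.02, adjusted p = 0.065), while those of Acaca (1.72, adjusted p = 0.044) and Elovl6 (1.88, adjusted p = 0.046) did.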

How the data were processed

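The authors deposited log2 values of each probe set on Affymetrix rat arrays, made with RMA per the submitters' processing notes, which name no version. RMA aligns all arrays to 1 distribution and so partly removes a shift shared by most transcripts. Symbols of the platform annotation were updated through gene identifiers. Representing each gene by the probe set described in the report gave 14217 genes.

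In R 4.3.3, limma 3.58.1 (lmFit and eBayes) was fitted to all 21 arrays as 7 group means, with Benjamini-Hochberg adjustment over all genes and a call at adjusted p under 0.05. Intervals are 95%. Tissues of 1 rat are from the same animal per the labels. Deviations of tumour and liver from their group means correlated at 0.040 to 0.297 within 9 rats (median 0.140). Between different rats the median was -0.070. With the mean of 3 arrays subtracted, positive values within rats make those between rats negative, so this contrast cannot test the pairing. For tumour and metastasis the values were 0.041 to 0.578 within rats and -0.625 to 0.576 between rats. The rat as a block (duplicateCorrelation) is an alternative. On data simulated for liver day 25 against day 10 over 14217 genes, the fit recovered 76% of genes changed by 1 log2 unit and 95% of those changed by 2, with 10 false calls. The simulated noise was independent, with 1 spread per gene for all groups. In the data the SD of Scd was 0.12 in day 15 livers and 2.28 in day 25 tumours. The simulated figures do not cover genes of such unequal spread. The SEs, intervals and adjusted p of the main fit likewise rest on 1 spread per gene, not on that of the compared groups. The number of arrays limits the precision.

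The members, the 6 pathway lists and the markers were chosen with earlier results of these data known. All members are named; from each list up to 3 called genes with the largest change and 1 uncalled gene with the highest mean, in 2 comparisons (liver day 25 against day 10, tumour against liver over all days); Thrsp, Tkt and Scd2 are given further values chosen after they were seen; and per member the 3 genes with the highest Pearson correlation over 9 livers. Alternatives were centring, renewed quantile normalization, the mean of probe sets, a filter on low levels, fits on fewer groups, other eBayes settings, the block and leaving out arrays.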

Additional observations from a re-analysis of the deposited data

Results flagged for a closer look

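The difference between tumour and liver was called as changed from day 10 to day 25 for 3 of the 10 genes, by the test of that change itself (limma over all genes). All 3 were called upward, where 0.373% of all genes were. Acly changed by 2.47 on the log2 scale (SE 0.55, adjusted p = 0.039), from -1.69 at day 10 to 0.77 at day 25. Fasn changed by 2.72 (SE 0.65, adjusted p = 0.047), from -1.76 to 0.96. Acacb changed by 1.44 (SE 0.28, adjusted p = 0.025), from -2.07 to -0.62, with the tumours of both days and the day 25 livers (5.26) under the lowest array median, so that its day 25 difference is between levels not told apart from background. Between the same days the liver differences of these genes were -2.92, -3.03 and -1.73 and were called, while the tumour differences were -0.45, -0.31 and -0.29 and were not called. The liver arrays enter both sets of values. Of 32 alternative settings, 13 ended the call of Acly, 22 that of Fasn and 7 that of Acacb, and 0 of the 10 genes passed without rat 7. The second Fasn probe set did not pass (3.02, adjusted p = 0.065).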

How the results depend on the processing

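The 32 alternatives were applied to the counts of called genes and to 86 single values of the 10 genes. Of the combinations of a single value with an alternative, 2560 kept direction and side of the threshold. Of the rest, 127 lost a call, 56 gained one and 9 changed sign. For liver day 25 against day 15 (8 called), a fit on the compared groups alone gave 0, and leaving out 1 array 5 to 10. For the change of the tumour-liver difference (3 called), the replicate block by rat gave 5, leaving out rat 5 gave 5, leaving out rat 7 gave 0, and leaving out 1 array 0 to 4. For tumour against liver at day 25 (4 called), leaving out the arrays with acinar transcripts or those of rat 5 gave 7 each, and leaving out 1 array 3 to 7. For tumour day 25 against day 10 (0 called), the same omissions gave 2 and 1, and leaving out 1 array 0 to 1. With 1 array left out, liver day 25 against day 10 kept 8 to 10 calls. Settings that left out rat 5, rat 7 or the acinar arrays, and the one that preferred probe sets of 1 transcript, were chosen after seeing the data. Sign changes were confined, among the 86 values, to uncalled ones: Pnpla3 in metastasis against liver was -0.028 after renewed quantile normalization, -0.017 as the mean of its probe sets and -0.19 to 0.37 with 1 array left out, against 0.04; Pnpla3 in tumour against liver at day 25 was 0.12 without rat 7 and -0.48 to 0.078 with 1 array left out, against -0.25, the positive value without the liver of rat 7; Scd in the change of the tumour-liver difference was -1.95 to 0.32 with 1 array left out, against -0.76, with positive values without the tumour of rat 7 (0.32) and the liver of rat 9 (0.25). The cause of these shifts was not tested. Besides the calls given with each result, the rat block changed none of these values across the threshold. Levels under the array medians and near the top of the scale limit the sizes of change for Acacb, Gpam and Scd and for other probe sets of Elovl6, Pnpla3 and Gpam. Low values in the day 25 livers of rat 7 for Elovl6 and rat 9 for Pnpla3 limit theirs too.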
